A study of Drosophila melanogaster with 3 samples.

Results

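The genes described here encode 6 coregulators of the ecdysone response in Drosophila melanogaster, tai, crc, nej, trr, Smr and Sin3A. They were set against Eip75B binding mapped by chromatin immunoprecipitation and sequencing. The genes were taken by name, 6 of the 13945 protein-coding genes annotated on the arms 2L, 2R, 3L, 3R, 4 and X. All Eip75B peak summits in each gene body with 5 kb on either side, here called the gene's span, were collected. The spans held 36 of the 7803 optimal summits. The material was whole prepupae, males and females pooled and of unknown age, from the strain Eip75B-MiMIC-GFP, whose Eip75B gene carries an intronic eGFP exon and gives a GFP fusion protein. Chromatin was precipitated with an anti-GFP antibody in 3 biological replicates that form 1 group, and no second condition was analysed. Which Eip75B isoforms carry the tag was not examined, and signal from whole animals averages over all tissues. The optimal list is the authors' list of peaks that passed a reproducibility threshold, made from the 3 replicates pooled. A place in it does not mean that a peak was found in every replicate. The signal of a peak is the authors' deposited value, used only within its own list. For each replicate, its 7803 regions of highest signal were kept as its top list, matching the optimal list in length. Read numbers were not at hand, and the depth behind these values is unknown. No test was run, since the group has no counterpart and the genes were chosen with earlier results of these data known.

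Ecdysone acts through a receptor made of EcR and usp, which activates or represses genes by recruiting other proteins. Coactivators such as the histone acetyltransferase encoded by nej open chromatin or help transcription start, whereas corepressors such as the SMRTER protein encoded by Smr recruit histone deacetylases through scaffolds such as Sin3A. Eip75B is itself a nuclear receptor gene induced by ecdysone, and its product is known to repress genes and to block activation by the related receptor Hr3.

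Eip75B summits were found at 5 of the 6 genes. In the long genes tai and Smr most summits lay deep in introns, with 14 and 13 summits in their spans. In the shorter genes Sin3A, nej and crc, with 4, 3 and 2 summits, nearly all lay within 1 kb of the gene's own transcription starts. The span of trr held 0 optimal summits. Over all protein-coding genes, 50.02% had at least 1 optimal summit in a span drawn in the same way, so the count of 5 genes in 6 is to be read against that share. In the gene body alone a summit was present in the same 5 genes, against 15.2% of all protein-coding genes, and a long body can hold more summits. At least 1 summit within 1 kb of a start was present in 4 of the 6 genes, tai, crc, nej and Sin3A, against 23.6% of all protein-coding genes.

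Examples of this pattern are the strongest intronic peaks of tai and Smr and the strongest start-proximal peaks of nej and crc. The start-proximal peaks of Sin3A, the strongest of which has a higher signal than that of crc, are described with that gene and not shown as sequence. The examples are given as the 151 bases centred on the summit, read from the Release 6 RefSeq genome (dm6), plus strand, 5′ to 3′. Capitals mark GAGAG or its reverse complement, the core of the site bound by the GAGA factor.
tai, chr2L:9224501-9224651: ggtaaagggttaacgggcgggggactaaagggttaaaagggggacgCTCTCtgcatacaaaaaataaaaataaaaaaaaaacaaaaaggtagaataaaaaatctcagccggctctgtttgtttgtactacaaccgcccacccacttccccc
tai, chr2L:9168380-9168530: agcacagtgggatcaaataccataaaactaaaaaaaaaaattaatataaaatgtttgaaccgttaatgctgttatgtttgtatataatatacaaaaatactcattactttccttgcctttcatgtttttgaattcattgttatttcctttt
Smr, chrX:12735615-12735765: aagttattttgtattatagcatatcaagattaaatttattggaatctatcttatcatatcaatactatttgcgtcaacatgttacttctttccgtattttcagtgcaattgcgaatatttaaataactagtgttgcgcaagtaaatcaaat
Smr, chrX:12719271-12719421: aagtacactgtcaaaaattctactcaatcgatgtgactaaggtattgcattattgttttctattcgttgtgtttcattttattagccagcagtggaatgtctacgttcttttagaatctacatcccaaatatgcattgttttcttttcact
nej, chrX:9687645-9687795: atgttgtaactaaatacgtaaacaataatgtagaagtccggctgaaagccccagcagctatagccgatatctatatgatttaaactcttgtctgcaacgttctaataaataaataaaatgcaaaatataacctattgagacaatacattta
crc, chr2L:21314065-21314215: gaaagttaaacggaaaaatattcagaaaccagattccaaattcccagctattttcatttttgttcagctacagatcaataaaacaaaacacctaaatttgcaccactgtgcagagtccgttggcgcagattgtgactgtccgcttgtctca

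None of these windows holds the AGGTCA hexamer that nuclear receptors of this family bind, and they differ in base composition. The share of A and T was 75.5% in the tai site near the upstream start, 73.5% in the strongest Smr site, 68.9% at nej and 67.5% in the second Smr site. It was 60.9% at crc and 57.0% in the distal tai site. The longest run of a single base was 11 in the tai site near the upstream start and 10 in the distal tai site. A missing hexamer says only that these letters are not in these windows.

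tai encodes a coactivator of the ecdysone receptor in the steroid receptor coactivator family, and its summits were spread over most of its length. The gene (FBgn0041092; chromosome 2L, 9166778 to 9250211, plus strand, 83434 bp) has 6 annotated transcripts and 2 starts. Of its 14 optimal summits, 13 lay in the body and all 13 were intronic. The replicates' top lists held 12, 15 and 15 summits in the span, 14.0 ± 1.73 (SD, n = 3). The gap between neighbouring summits in the body ranged from 722 to 13196 bp with a median of 3944 bp.

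The strongest tai summits lay far apart. The summit at 9224576, in the longest intron that held a summit, had a signal of 387.4, rank 1045 of 7803 in the optimal list. Its region had signals of 105.0, 124 and 143 in replicates 1, 2 and 3, ranks 1602, 1162 and 864. It is 48218 bp from the nearest tai start and 26466 bp from that of aust, the nearest start of any protein-coding gene. The summit at 9168455 had a signal of 387.0 and rank 1048, and lay 1677 bp downstream of the upstream start. It ranked 934, 986 and 1369 in the replicates, so neither of these sites stood above the other in all 3. The next in signal, at 9211465, had a signal of 278, and its ranks of 1753, 1716 and 1998 were close together.

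Most tai summits shared a single intron. The intron of 42174 bp, present in all 6 transcripts, held 8 summits between 9203577 and 9231951, or 1.90 per 10 kb. A cluster of 4 of them lay between 9203577 and 9207324, with signals of 145, 267, 164 and 118. The intron of 13984 bp held 2 and an intron of 3694 bp held 1. The weaker summits of the 13984 bp intron, with signals of 99.7 and 99.1, were each in the top list of replicate 3 only. The summit at 9205410 varied most among the stronger sites, with ranks of 4300, 1084 and 2005 in replicates 1, 2 and 3.

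At the starts of tai the signal was modest. The upstream start had a summit 142 bp away at 9166636, with a signal of 179 and ranks of 3016, 4509 and 3752 in the replicates. That summit lies between tai and CG9586 and is 122 bp from the start of CG9586, so it cannot be given to either gene alone. The downstream start, used by 3 of the 6 transcripts, had a summit 23 bp away at 9176335 with a signal of 106. The strongest regions over it were near the end of each top list, with ranks of 7118, 6410 and 6365. In replicate 1 the nearest summit, 66 bp away, had a signal of 8.57 and rank 27997, outside the top list. In replicate 2 the nearest summit was 109 bp away.

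**Figure D1:**
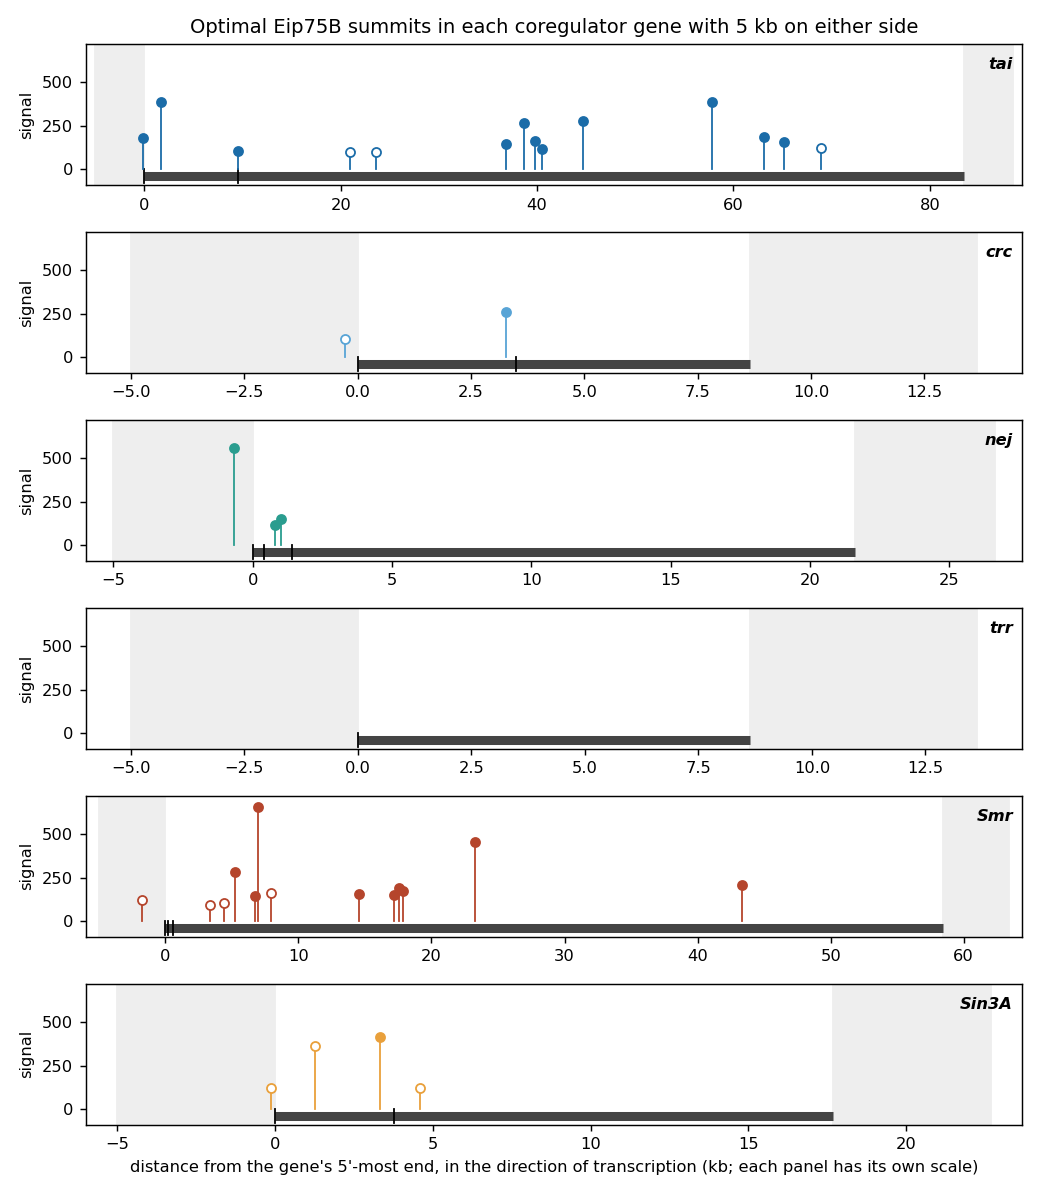
Optimal Eip75B summits along each gene, with the authors' signal on the vertical axis and the distance from the 5′-most end of the gene, in the direction of transcription, on the horizontal axis (kb). The dark bar is the gene body, black ticks are transcription starts and grey bands are the 5 kb on either side. Filled points were found in every replicate's top list and open points in fewer. Summits spread along the introns of tai and Smr, whereas those of crc, nej and Sin3A gather at the starts and trr has none.

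crc encodes the fly ATF4, a leucine zipper transcription factor that also acts as a coactivator of an EcR isoform. The gene (FBgn0000370; chromosome 2L, 21310866 to 21319527, plus strand, 8662 bp) had 2 optimal summits in its span, each near 1 of its 2 starts. The stronger, at 21314140, had a signal of 259.6 and rank 2008. It was in the top list of every replicate, with ranks of 2097, 1575 and 1967. It lies in a crc intron 220 bp upstream of a start that crc shares with the gene model CG46314, which lies wholly inside crc. The weaker, at 21310589, lay 277 bp upstream of the other start with a signal of 102. Its ranks of 4714, 10458 and 11823 put it in the top list of replicate 1 only. The top lists held 3, 4 and 2 summits in the crc span, 3.00 ± 1.00 (SD, n = 3). In replicate 2 these included a summit at 21309568 that is absent from the optimal list and lies 79 bp from a start of Mondo, and another at 21313118.

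nej encodes the fly CBP, a histone acetyltransferase used by many transcription factors. The gene (FBgn0261617; chromosome X, 9665442 to 9687066, minus strand, 21625 bp) had 3 optimal summits, all within 1 kb of its starts. Each was covered by a top-list region of every replicate. The strongest, at 9687720, lay 654 bp upstream of the outermost start, outside the gene, with a signal of 556 and rank 528. It was among the steadiest sites of these genes, with signals of 179.5, 190.2 and 185 and ranks of 595, 494 and 515 in replicates 1, 2 and 3. The others, at 9686052 and 9686254, lay 202 bp apart in an intron of 2487 bp between the starts, with signals of 148 and 117. Their regions overlap, so they could be counted as 1. In replicate 1 the region of rank 4625 covered both, and the summit nearest to 9686254 ranked 8254, outside the top list. In replicate 3 the region of rank 4525 covered both, and its summit lay 97 bp from 9686052 and 105 bp from 9686254. The rest of the nej body had 0 optimal summits. Each replicate's top list held a summit there that is absent from the optimal list. These lay at 9684304 in replicate 1, 9684299 in replicate 2 and 9685184 in replicate 3, with ranks of 6966, 6549 and 7056. The top lists held 3, 4 and 3 summits in the span, 3.33 ± 0.577 (SD, n = 3).

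trr encodes a methyltransferase for lysine 4 of histone H3 that has been reported to act with EcR. The gene (FBgn0023518; chromosome X, 1881313 to 1889950, minus strand, 8638 bp) was the member without an optimal summit. In the list of the pooled replicates, which holds 30000 regions including background, 0 summits lay in its span. The top lists of replicates 2 and 3 each held 1 summit there, at 1879759 with rank 3504 and at 1879732 with rank 3207. Replicate 1 had none in its whole list. These summits lay 1554 and 1581 bp beyond the 3′ end of trr, and 15 and 42 bp from the start of CG14818. Thus no list held a summit in the trr body or within 1 kb of its start.

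Smr encodes SMRTER, a corepressor of the unliganded ecdysone receptor, and its summits formed intronic clusters in the upstream part of the gene. The gene (FBgn0265523; chromosome X, 12684203 to 12742618, minus strand, 58416 bp) has 4 transcripts and 3 starts that lie close together. Of 13 optimal summits in the span, 12 lay in the body and all 12 were intronic. The top lists held 14, 11 and 10 summits in the span, 11.7 ± 2.08 (SD, n = 3). The range overlaps that of tai, 12 to 15, and lies above those of the other 4 genes, which ran from 0 to 4.

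Among the summits in the spans of the 6 genes, the strongest was in Smr. The summit at 12735690 had a signal of 655 and rank 361, and lay 6380 bp from the nearest Smr start in an intron of 9048 bp. The strongest regions over it ranked 608, 380 and 354 in replicates 1, 2 and 3. A summit of replicate 1 with rank 296 lay 78 bp away. The same intron held 6 summits, or 6.63 per 10 kb. Of these, the summit at 12735897 lies in the same region of 861 bp as the strongest and has a signal of 147. The others had signals of 285, 160, 104 and 94.0.

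The second group of Smr summits lay further into the gene. The summit at 12719346 had a signal of 454 and rank 766, and its signals of 151, 151 and 152 in the replicates, with ranks of 830, 806 and 751, were nearly level. It lay in an intron of 15646 bp with 4 others. Of those, 3 fell between 12724747 and 12725396 and had signals of 173, 192 and 149, and the summit at 12728039 had 154. The regions of 12724747 and 12725031 overlap, and 1 region of replicate 3, of rank 2247, covers both summits. A single summit at 12699276, with a signal of 205, lay in an intron of 16884 bp.

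No summit lay within 1 kb of a Smr start in the optimal list or in the top list of any replicate. The flank summit at 12744346, with a signal of 121, lay 1728 bp upstream of Smr but 118 bp from the start of CG4004, in the 5' UTR of that gene. It was also the member summit farthest from its gene. The nearest excluded by the limit of 5 kb was at 12598515, 5598 bp beyond Sin3A in an intron of Amph, with a signal of 235. Beyond the limit at Smr, 8743 and 9751 bp upstream of the gene, lay peaks with signals of 2131 and 1819.9 that ranked 13 and 21 in the whole optimal list. CG4004 has the nearest start to both, at 5044 and 6052 bp.

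Sin3A encodes the scaffold of a histone deacetylase complex that SMRTER contacts. The gene (FBgn0022764; chromosome 2R, 12575240 to 12592917, minus strand, 17678 bp) has 10 transcripts and 2 starts, and 4 optimal summits in its span. Of these, 3 lay in the upstream part of the gene and 1, at 12593026, lay 109 bp upstream of it. The strongest, at 12589587, had a signal of 413 and rank 922. It lay in an intron 435 bp upstream of the inner start and ranked 1167, 1356 and 698 in the replicates. The summit at 12591634, 1283 bp from the outer start, had a signal of 365 and rank 1169. It ranked 948 and 1838 in replicates 2 and 3, but the strongest region over it in replicate 1 ranked 26676, with a signal of 9.06. In that replicate a summit with a signal of 139 and rank 980 lay 35 bp away, in a region that does not reach the optimal summit. The remaining summits, at 12588310 and 12593026, had signals of 119 and 123 and lay 842 and 109 bp from a start. Both fell outside the top list of replicate 3, with ranks of 10257 and 15676. The top lists held 4, 4 and 2 summits in the span, 3.33 ± 1.15 (SD, n = 3).

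**Figure D2:**
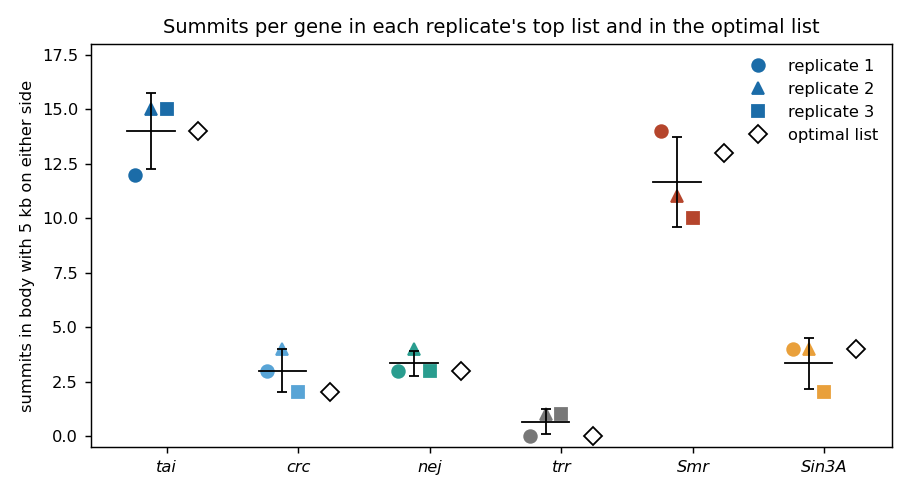
Number of summits in each gene's span in the top list of replicates 1, 2 and 3 (coloured points, with mean and SD in black) and in the optimal list (open diamonds). tai, with 12 to 15, and Smr, with 10 to 14, lie above the other genes in every replicate, and crc, nej and Sin3A overlap between 2 and 4.

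The longest genes, tai and Smr, held the most summits, and per length the genes with a summit were closer together. Among the shorter genes the counts did not follow length. Sin3A (17678 bp) had 4 and nej (21625 bp) 3, and crc (8662 bp) had 2 and trr (8638 bp) 0. The optimal list gave 1.90 summits per 10 kb of span at Smr, 1.498 at tai, 1.45 at Sin3A, 1.07 at crc, 0.949 at nej and 0 at trr. Over all protein-coding genes the median was 0.0674 and the 90th percentile was 1.90. In the replicates' top lists the densities were 1.71 ± 0.304 at Smr, 1.61 ± 0.536 at crc, 1.498 ± 0.185 at tai, 1.20 ± 0.417 at Sin3A, 1.05 ± 0.183 at nej and 0.358 ± 0.310 at trr (SD, n = 3). The range of crc, 1.07 to 2.14, overlapped those of Smr, tai, Sin3A and nej. Smr, from 1.46, lay just above Sin3A, which reached 1.45, and Sin3A overlapped tai. The highest value at nej, 1.26, was just under the lowest at tai, 1.28, and the highest at trr, 0.537, was under the lowest of every other gene. Among the 307 protein-coding genes of at least 50 kb, which include tai and Smr, the median was 3 summits per span and the upper quartile 9. Of these long genes, 31 had more summits than tai and 39 more than Smr, and the highest number was 40, that of the tagged gene Eip75B.

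**Figure D3:**
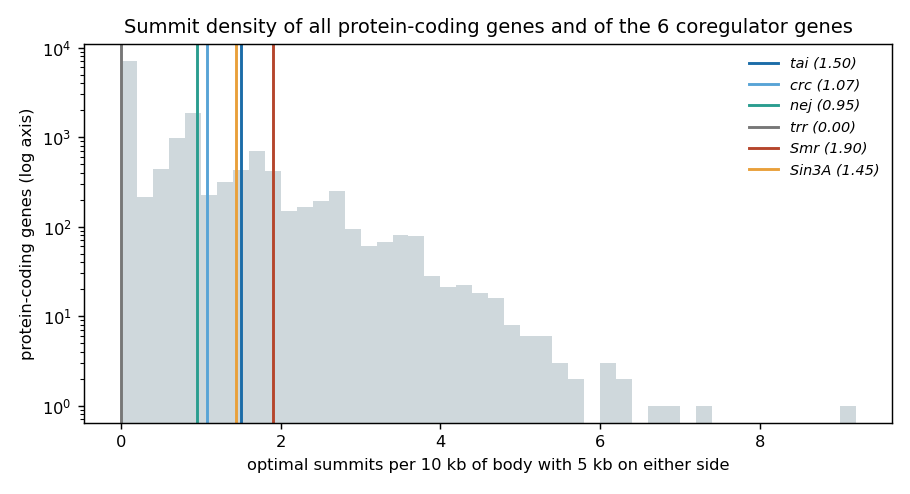
Histogram of optimal summits per 10 kb of span over all protein-coding genes (log axis), with the value of each coregulator gene as a vertical line. Smr, at 1.90, lies at the 90th percentile of all genes, tai, Sin3A, crc and nej lie between 0.949 and 1.498, and trr is at 0.

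As a group, the 36 summits lay farther from promoters than optimal summits in general, a pattern set by tai and Smr. The shorter genes went the other way. Within 1 kb of an own start lay 2 of 2 summits at crc, 3 of 3 at nej and 3 of 4 at Sin3A. Gene length was not matched in this comparison. Of the 36, 11 (30.6%) lay within 1 kb of the start of any protein-coding gene, against 42.4% of all 7803. More than 10 kb from any start lay 16 (44.4%), against 14.6% of all, and all 16 were in tai or Smr. The nearest start was a median of 6479 bp away from the coregulator summits, against 1604 bp from all optimal summits. Of the 36, 25 were intronic summits in the body of tai or Smr. The intronic share of all optimal summits is not given here, so that number has no comparison. The signals were ordinary for the list, with a median of 159 at the coregulator genes and 164 over all optimal peaks.

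The sites recurred between replicates about as often as other optimal sites. Of the 36 summits, 25 (69.4%, 95% exact Clopper-Pearson interval 51.9% to 83.7%) lay in a top-list region of all 3 replicates, against 65.2% of all optimal summits. The interval covers counting error only and treats the 36 summits as independent. They are not, since tai and Smr supply 14 and 13 of them. Some neighbouring summits were also matched to the same replicate region. A further 8 lay in 2 top lists and 3 in 1. Of all 7803 optimal summits, 1879 lay in 2 top lists, 782 in 1 and 51 in 0. By gene, all 3 nej summits, 11 of 14 at tai, 9 of 13 at Smr, 1 of 2 at crc and 1 of 4 at Sin3A were found in all 3. With a replicate summit within 100 bp required in place of a region over the site, 21 of the 36 were found in all 3. With either accepted as a match, an alternative added after seeing the data, the number was 27. The shares of all optimal summits under these alternatives are not given here. The 2 gained by accepting either were the Sin3A summit described above and the Smr summit at 12734694, which had a replicate 2 summit 37 bp away. With the optimal list split into 4 parts of nearly equal length, from the strongest to the weakest, 9 of 10, 6 of 6, 7 of 12 and 3 of 8 coregulator summits were found in all 3, against 95.9%, 93.1%, 60.0% and 11.9% of all summits.

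**Figure D4:**
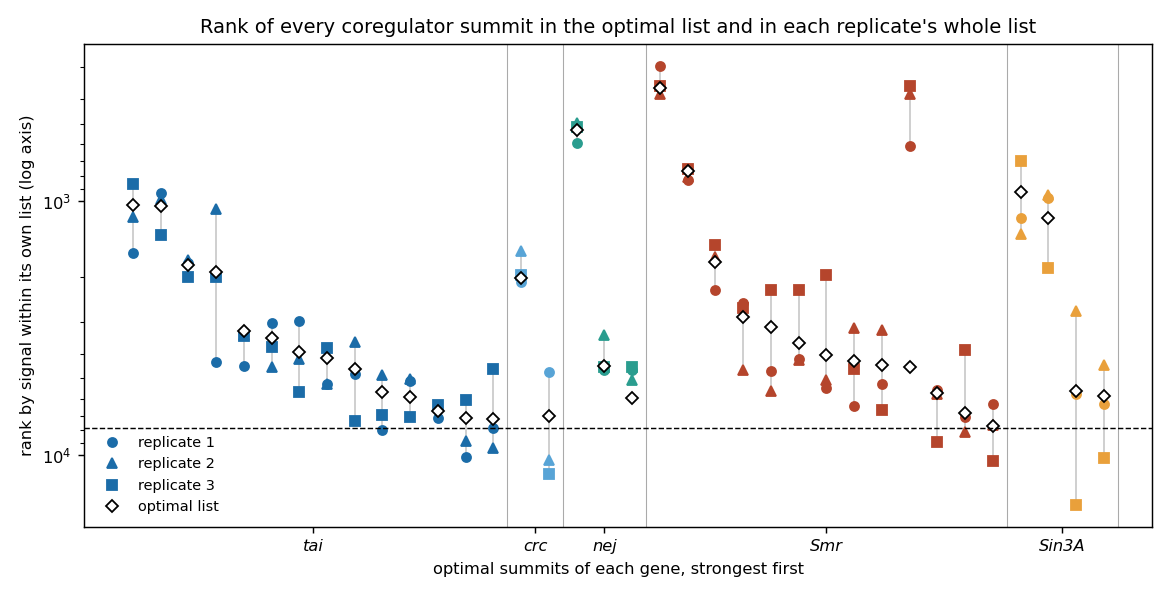
Rank by signal of each of the 36 summits in the optimal list (open diamonds) and in each replicate's whole list (coloured symbols), on a log axis with rank 1 at the top. The dashed line is rank 7803. A replicate's rank is the best among regions over the summit or summits within 100 bp. The strongest sites of Smr and nej sit close together in all lists, and the points under the dashed line belong to weaker summits. The replicate ranks shown for the Smr summit at 12735897, 608, 380 and 354, are those of the regions that also cover the stronger summit at 12735690. At nej, the ranks of replicates 1 and 3 shown for 9686254, 4625 and 4525, are those of regions that also cover 9686052. The replicate 3 rank of 2247 shown for the Smr summits at 12724747 and 12725031 is that of 1 region over both.

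When weaker regions of the pooled list were admitted, tai and Smr gained the most summits and trr still had 0. That list lacks the region beside trr that replicates 2 and 3 listed. Among its 7803 strongest regions, each gene had as many summits as in the optimal list. Among the 2000 strongest pooled regions there were 4 summits at tai, 3 at Smr, 2 at Sin3A, 1 at nej and 0 at crc. Among all 30000 pooled regions there were 43 at tai, 32 at Smr, 11 at Sin3A, 11 at crc, 6 at nej and 0 at trr. At nej the number grew least among the bound genes, to 6 against 3 in the optimal list. The long lists include background, so these numbers are not counts of binding sites. In the whole lists of the replicates, tai held 41, 35 and 49 summits and Smr 31, 37 and 28, and those ranges overlap.

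**Figure D5:**
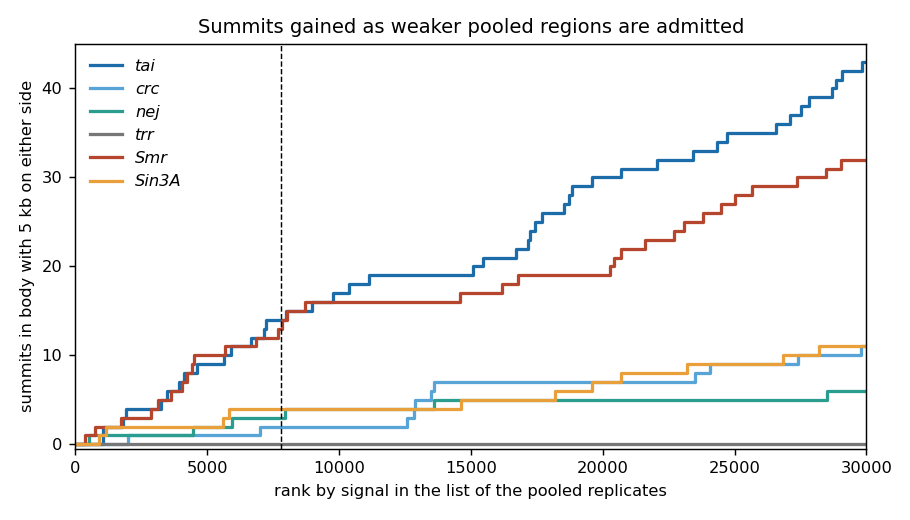
Cumulative number of summits in each gene's span as regions of the pooled list are admitted in order of signal, up to all 30000. The dashed line is rank 7803, the length of the optimal list. The curves of tai and Smr run close together to rank 15000, at 19 and 17 summits, and are apart at rank 20000, at 30 and 19, whereas trr stays at 0.

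Of the 10 motifs searched, the GAGA site alone was found near these summits. Within 50 bp of the summit, on either strand, 0 of 36 summits had AGGTCA, against 2.51% of all optimal summits. With a count of 0, an approximate 95% upper limit is 3 divided by the number of summits, here 8.33%. The longer TAGGTCA, the core of the E75 and Hr3 site, contains AGGTCA and was found at 0 of 36, against 0.743% of all. Also at 0 were the Ftz-F1 site TCAAGGTCA, the looser ecdysone receptor repeat GGTCANTGA, the full ecdysone receptor inverted repeat, the DRE TATCGATA, the Zelda site CAGGTA, the M1BP site GGTCACACT and the E-box CACGTG. Among these the highest share over all optimal summits was 1.88%, for CAGGTA. The GAGA site GAGAG was present at 4 of 36 (11.1%), 2 in tai and 2 in Smr, against 12.2% of all optimal summits. In windows of 151 bp, GAGAG was present at 8 of 36 coregulator summits, against 19.1% of all optimal summits, and AGGTCA at 0 of 36, against 3.51%. The median GC content within 50 bp was 34.7% at the coregulator summits and 32.7% over all optimal summits. Across members it ran from 14.9% at the summit between tai and CG9586 to 50.5% at the tai summit 9203577 and the Smr summit 12739259.

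Other genes that encode partners of these proteins were taken from a separate list of 35, of which 34 were matched in the annotation, 3 through synonyms. DOR was not matched. Of the 34, 19 (55.9%) had an optimal summit in their span, against 50.02% of all protein-coding genes, and 14 (41.2%) had one within 1 kb of a start, against 23.6%. The Sin3 complex genes had a summit in 5 of 7 cases, the genes of the trr complex in 5 of 9, the SMRTER and histone deacetylase partners in 2 of 3, other cofactors in 5 of 10, and other methyltransferase or corepressor genes in 2 of 5. Of the 19, 11 had a summit in the body and 8 had summits in the flanks alone. Over all protein-coding genes, 6975 had a summit in the span and 2119 of them in the body. The partner gene with the highest signal in its span was Caf1-55, which encodes a histone-binding subunit of several complexes, with a signal of 1848 and rank 19. That peak lay 3960 bp from the Caf1-55 start and was nearer to that of Art3. gro, which encodes the corepressor Groucho, had a peak with a signal of 881 at 121 bp from its start. Mi-2, which encodes a nucleosome remodeller, had an intragenic peak with a signal of 797 that was nearer to the start of Su(Tpl).

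The partner genes with the most summits were skd, trx and bon. skd, a subunit gene of the Mediator kinase module, had 10 in its span, 5 of them in the body, with 11, 10 and 8 in the replicates' top lists. trx, a histone methyltransferase gene related to trr, had 8, with 7, 8 and 7 in the top lists and a strongest signal of 714 at 3019 bp from its start. bon had 5, with 5, 3 and 2 in the top lists. Within the trr complex, Utx, which encodes a histone demethylase, had a summit 132 bp from its start with a signal of 217. The top lists of replicates 1 and 2 held a summit in the Utx span. Ncoa6 had 1 optimal summit with a signal of 193, and the top lists of replicates 1, 2 and 3 held 2, 0 and 1 in its span. Art4 and ash2 were among the 15 genes with 0.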

How the data were processed

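Eip75B binding was measured by ChIP-seq in 3 replicates of 1 group, and sonicated fragments of 200 to 800 bp were sequenced, per the labels. Per the deposited file listings, the authors made a list of 30000 regions, background included, per replicate and pooled, as input for IDR (the irreproducible discovery rate), and from them 7803 optimal peaks. The authors' signal is the caller's value per region, its scale not stated. Neither aligner, caller, IDR threshold nor depth is given in the sources used here. A deposited summit offset gave the position of each summit.

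All dm6 regions lay within the Release 6 arms. Genes were taken from Ensembl release 115. dm3 lists were not used. Summits were counted in each gene body with 5 kb on either side, and an optimal summit was found in a replicate when a top-list region covered it. Counting was checked on simulated regions. The 10 motifs, the lists and the members were chosen with earlier results of these data known. Named sites are each gene's strongest summits and strongest start-proximal summit, plus those at the 5 kb limit and others chosen after their values were seen. From the list of partners, the 3 with the highest signal, the 3 with the most summits and the first 2 without one were named by rule, and Utx, Ncoa6 and DOR were added after their values were seen. Alternatives were flanks of 0, 2 and 10 kb, stricter and longer lists, merged regions, other distances and leaving out each replicate. Python 3.11.15, numpy 2.4.6 and scipy 1.17.1 were used.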

Additional observations from a re-analysis of the deposited data

How the results depend on the processing

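The count of 5 bound genes in 6 was the same with flanks of 0, 2 and 10 kb and with the 3901 highest-signal optimal peaks. The share of all protein-coding genes with a summit was not, at 15.2%, 36.1% and 65.7% with those flanks and 35.4% on that stricter list, against 50.02% with 5 kb. On the stricter list the 36 summits became 16, the 31 in gene bodies 14, the 25 found in all replicates 15 and the 10 near own starts 4, which follows from the shorter list. With overlapping regions merged, the 36 summits became 33 and the 13 at Smr became 11. The replicates' mean of 36.0 summits became 101 with their whole lists and 17.0 with top lists of 3901. Without any 1 replicate that mean ran from 34.5 to 37.5, and the summits found in all remaining replicates from 27 to 29. Without flanks, 11 of the 34 partner genes had a summit (15.2% of all protein-coding genes), against 19 with 5 kb (50.02% of all). The GAGAG share of 11.1% became 30.6% within 100 bp of the summit and 2.78% within 25 bp, windows of different length. AGGTCA, at 0 of 36 within 50 bp, was present at 2.78% (1 of 36) within 100 bp. The shares of all optimal summits within 100 and 25 bp are not given here, so these motif values have no comparison. The strongest summit was the same one in 4 of the 5 bound genes without flanks, where that of nej fell outside, and in 4 with flanks of 10 kb, where a peak with a signal of 2131 nearer to CG4004 entered the span of Smr. With flanks of 10 kb, nej had 8 summits in place of 3. At Sin3A, 3 summits were found in all remaining replicates without replicate 3 and 2 without replicate 1, against 1 with all 3. Depth is unknown, so an absent summit in the trr body or near its start cannot be told apart from one too weak to be listed. The summits that replicates 2 and 3 listed beside trr, with ranks of 3504 and 3207, had no region in the pooled list.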

Other observations

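The region beside trr was listed by 2 replicates and not by the pooled list. The summit near CG14818 had signals of 64.1 in replicate 2 and 63.9 in replicate 3, ranks 3504 and 3207, while the pooled list of 30000 regions had no region over it. Over the genome, 418 top-list summits of replicate 2 had no pooled region over them, and 182 of these lay in a top-list region of replicate 3. Of those 182, 113 lay in a top-list region of replicate 1 as well. The numbers for replicates 1 and 3 were 426 and 399. Why they are missing was not tested.

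Whether a site counted as found depended on region edges at the Sin3A summit 12591634. Among the 1950 strongest optimal summits, 18 were found in the top lists of replicates 2 and 3 but not in that of replicate 1, and 28 and 29 lacked replicate 2 or replicate 3 alone.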
